A study of Mus musculus with 8 samples.

Results

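The BCL2 family apoptosis genes described here are 10 mouse genes chosen by name from the 23284 gene symbols in the count files. They comprise the pro-survival genes Bcl2, Bcl2l1 and Mcl1, the BH3-only genes Bcl2l11, Bbc3, Bmf, Bid and Bad, and the effector genes Bax and Bak1. All 10 were found in the files and all 10 had enough counts to be tested. RNA sequencing had been performed on preSC cells, a culture model of precancerous neuroendocrine lung cells, derived from mice of the genotype Chga-GFP;Rblox/lox;p53lox/lox;p130lox on a 129/SvJ; C57BL/6 background. There were 4 libraries labelled Max KO (MaxKO 1 to 4), from polyclonal populations transduced with a guide RNA against Max, and 4 control libraries (Ctrl 1 to 4), from populations given a control guide. Both groups carried the same conditional alleles and reporter, both were selected with puromycin and expanded, and neither received a further treatment. Because the populations were not cloned, cells with different edits at Max can be present in 1 library. Nothing in the labels states that the 4 replicates were grown as independent cultures, or whether the alleles had been recombined. The p-values therefore rest on the variation among these 8 libraries, some of which may be technical.

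Proteins of the BCL2 family decide whether the outer mitochondrial membrane is opened during apoptosis. BAX and BAK open it by forming pores, the pro-survival proteins BCL2, BCL-XL and MCL1 hold them in check, and BH3-only proteins such as BIM and PUMA bind the pro-survival proteins or activate BAX and BAK directly. Opening of the membrane releases cytochrome c, which assembles with APAF1 and caspase 9 and starts the caspase cascade. MAX is the obligate DNA-binding partner of the MYC proteins, and MYC activity is known to sensitise cells to apoptosis.

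A start-site window is shown for each of the 4 genes that passed the test below and for Bax, which carries the sequence bound by MAX dimers but did not pass it. Windows of 300 bases, from 250 before to 50 after an annotated start site, were taken from RefSeq (build GRCm38.p6, another build than the one used for counting), which held 18 windows for the 10 members. Bbc3 had 3 windows and Bcl2l11 had 2, and for each of these genes 1 window holding a motif is shown. Capitals mark CACGTG, the E-box bound by MAX dimers, and GTAAACA, the core bound by FOXO factors, on either strand.
Bcl2l11 (chr2:128125788-128126087, plus strand): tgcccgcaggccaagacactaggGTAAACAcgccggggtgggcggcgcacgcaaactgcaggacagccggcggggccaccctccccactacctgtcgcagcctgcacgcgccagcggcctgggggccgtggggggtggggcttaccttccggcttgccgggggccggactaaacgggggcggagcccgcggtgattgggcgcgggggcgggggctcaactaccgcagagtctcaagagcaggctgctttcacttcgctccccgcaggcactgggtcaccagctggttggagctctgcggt
Bbc3 (chr7:16310181-16310480, plus strand): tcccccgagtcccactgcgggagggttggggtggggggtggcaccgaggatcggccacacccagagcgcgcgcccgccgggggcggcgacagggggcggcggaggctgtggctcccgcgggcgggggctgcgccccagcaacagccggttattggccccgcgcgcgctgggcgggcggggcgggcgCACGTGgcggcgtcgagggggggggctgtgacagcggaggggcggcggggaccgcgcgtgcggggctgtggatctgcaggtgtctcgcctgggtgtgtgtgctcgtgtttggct
Bid (chr6:120916775-120917074, minus strand): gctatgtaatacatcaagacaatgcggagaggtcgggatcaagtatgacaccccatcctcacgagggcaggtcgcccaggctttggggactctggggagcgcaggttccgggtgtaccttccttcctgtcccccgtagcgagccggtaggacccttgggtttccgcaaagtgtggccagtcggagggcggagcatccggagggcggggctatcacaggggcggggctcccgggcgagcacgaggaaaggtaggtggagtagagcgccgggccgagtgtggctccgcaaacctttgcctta
Bcl2 (chr1:106714241-106714540, minus strand): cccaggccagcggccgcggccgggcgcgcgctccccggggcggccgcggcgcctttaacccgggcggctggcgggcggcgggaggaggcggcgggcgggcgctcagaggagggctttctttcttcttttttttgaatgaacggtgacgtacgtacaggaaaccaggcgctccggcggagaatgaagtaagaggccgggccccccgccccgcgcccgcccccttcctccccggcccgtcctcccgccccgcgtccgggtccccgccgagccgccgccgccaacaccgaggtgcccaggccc
Bax (chr7:45466849-45467148, minus strand): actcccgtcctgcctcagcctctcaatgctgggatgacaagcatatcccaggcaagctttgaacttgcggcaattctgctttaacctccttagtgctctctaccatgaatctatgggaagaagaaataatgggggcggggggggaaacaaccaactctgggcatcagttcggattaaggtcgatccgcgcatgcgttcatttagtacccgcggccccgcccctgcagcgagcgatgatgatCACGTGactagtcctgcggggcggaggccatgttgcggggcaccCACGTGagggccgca
CACGTG was present in 2 of the 18 windows, those of Bbc3 and Bax, and in 7.15% of all 32851 windows of that length in the table. GTAAACA was present in the Bcl2l11 window shown and in another window of Bbc3, against 3.65% of all windows. The E2F-type letters TTTCCCGC, TTTGGCGC and TTTCGCGC, searched on both strands, matched only a window of Bcl2l1, against 1.84% of all windows. A match describes the letters in these windows and not binding in these cells.

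The libraries held 14952291 to 19480947 counted reads in the MaxKO group and 13711278 to 19804949 in the Ctrl group. Levels are given as CPM, read counts per library size, which was adjusted with TMM factors for differences in library composition, and differences as log2 fold changes of MaxKO over Ctrl from edgeR's quasi-likelihood test, with Benjamini-Hochberg adjustment over 13358 tested genes and a threshold of 0.05. Max itself was at 42.27, 42.33, 59.15 and 68.01 CPM in MaxKO 1 to 4 and at 65.49, 70.18, 75.17 and 61.94 CPM in Ctrl 1 to 4 (-0.37, SE 0.15, adjusted p = 0.0955). MaxKO 4 lay within the Ctrl range, and the Max transcript was a weak check of the label. The share of all reads in the file assigned to no feature is called here the share outside exons, or non-exonic share. As the strand setting of the counting is not given, exon reads on the opposite strand may be among them. The share was 18.3% to 19.1% in MaxKO libraries, 16.8% and 16.9% in Ctrl 1 and 2, and 20.6% and 20.8% in Ctrl 3 and 4. All 8 neuroendocrine marker genes examined, Chga and Syp among them, were expressed, with a summed level of 6341 to 7084 CPM in MaxKO and 5632 to 7719 CPM in Ctrl libraries. The 7 haematopoietic and 6 endothelial markers summed to 6.00 CPM or less in every library. Of 8 fibroblast markers, 7 averaged under 1 CPM over all libraries and summed to 0.209 to 0.745 CPM in MaxKO and 1.91 to 3.88 CPM in Ctrl libraries, Lum being at 0 throughout. The remaining one, Dcn, was at 49.1 to 65.0 CPM in MaxKO and 21.4 to 42.8 CPM in Ctrl libraries (0.77, adjusted p = 0.0124). Of the 7 low markers, Pdgfra was called lower (-2.37, adjusted p = 0.00423, edgeR). It was at 0.0522 to 0.339 CPM in MaxKO and 0.785 to 2.27 CPM in Ctrl libraries. The part of these differences in the results below was not tested.

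Transcripts of the pro-cell-death BH3-only genes Bcl2l11, Bbc3 and Bid were higher in MaxKO libraries, by 37.2%, 27.2% and 33.2%, and those of the pro-survival gene Bcl2 were lower by 20.2%. Of the 10 members, 3 rose, 1 fell and the other 6 missed the threshold. Over all tested genes, 10.9% rose and 12.2% fell, and 23.1% were called in either direction. By class, 3 of 5 BH3-only genes rose and none fell, 1 of 3 pro-survival genes fell and none rose, and neither effector gene was called by edgeR. The groups did not overlap for 5 members, 1 of them higher and 4 lower in MaxKO, against 26.4% of all tested genes. At an unadjusted p under 0.05, 3 members, all BH3-only, were higher and 4 lower, these being the 3 pro-survival genes and Bak1, against 17.4% higher and 18.1% lower over all tested genes. No member changed by as much as 1.5-fold. The counts depended on the scaling and on single libraries. With upper-quartile scaling, under which 1160 of all genes were higher and 1965 lower (1457 and 1627 with TMM), 1 member rose and 4 fell, with 8.68% of all tested genes higher and 14.7% lower. DESeq2 gave 3 members higher and 3 lower (Bcl2, Bcl2l1 and Bak1), with 12.5% of all tested genes higher and 13.2% lower. By limma-voom 3 were higher and 1 lower, with 11.4% of all tested genes higher and 11.6% lower. With any 1 library left out, 1 to 3 members rose and 0 to 3 fell. In these fits 963 to 1846 of all tested genes were higher and 1139 to 1929 lower.

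**Figure D1:**
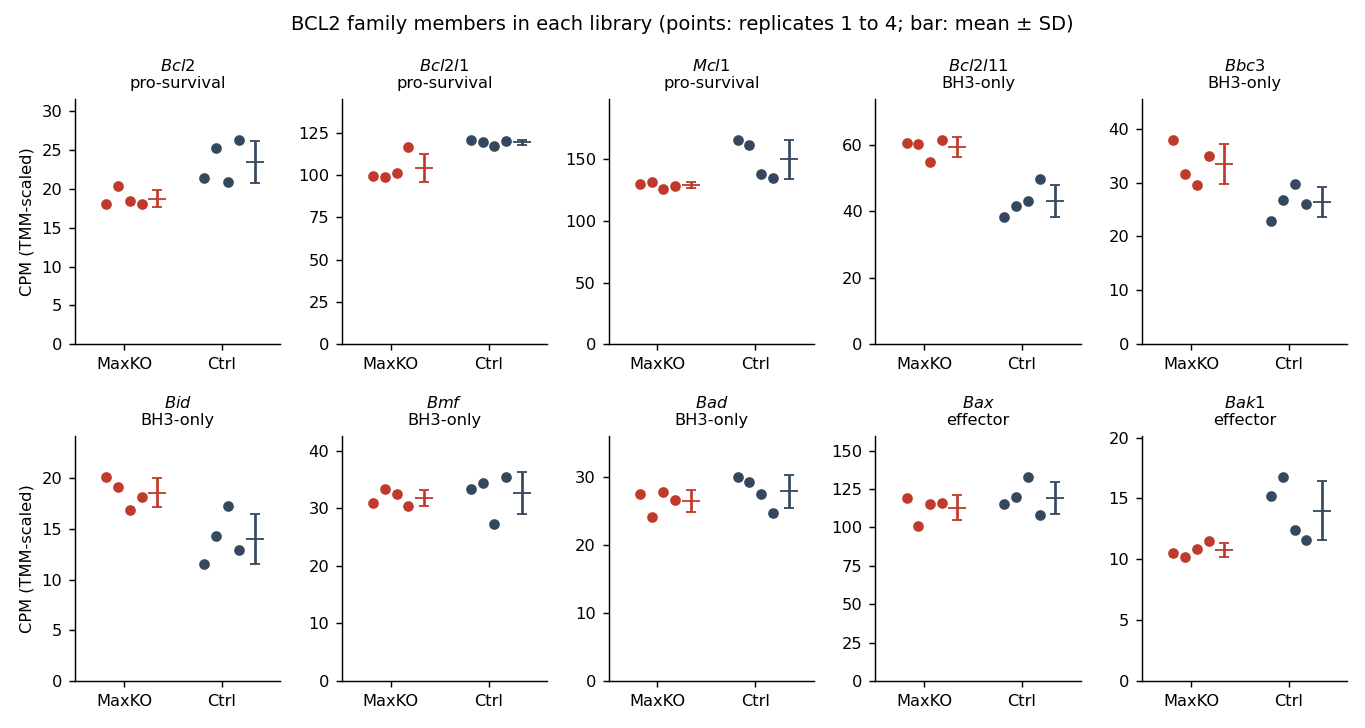
Level of each BCL2 family member in CPM (vertical axes from 0) in the 4 MaxKO (red) and 4 Ctrl (blue) libraries; points are single libraries in replicate order, and bars give the mean ± SD. The Bcl2l11 points of the groups are apart, at 54.8 CPM or more in MaxKO and 49.8 CPM or less in Ctrl, whereas those of Bbc3 and Bid overlap through Ctrl 3.

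Bcl2l11 encodes BIM, a BH3-only protein that can bind all the main pro-survival proteins. It was measured at 60.6, 60.2, 54.8 and 61.4 CPM in MaxKO 1 to 4 and at 38.3, 41.6, 43.1 and 49.8 CPM in Ctrl 1 to 4. Every MaxKO library lay above every Ctrl library, and Ctrl 4 was the highest control. The means were 59.3 ± 3.02 CPM in MaxKO and 43.2 ± 4.84 CPM in Ctrl (SD, n = 4 each), a log2 fold change of 0.46 (SE 0.09, adjusted p = 0.00364, edgeR). Bcl2l11 was the only member whose call held in all 19 alternative fits, with log2 fold changes of 0.34 to 0.57 and adjusted p of 0.0254 or lower. It was also the only member for which the groups did not overlap in the upward direction, a pattern seen in 13.4% of tested genes.

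Bbc3 encodes PUMA, a BH3-only protein best known as a target of p53. It was measured at 37.9, 31.5, 29.6 and 34.9 CPM in MaxKO 1 to 4 and at 23.0, 26.8, 29.8 and 26.1 CPM in Ctrl 1 to 4. Ctrl 3 lay just above MaxKO 3, and the other 3 controls lay below all MaxKO libraries. The log2 fold change was 0.35 (SE 0.11, adjusted p = 0.0331, edgeR). The call ended in 5 of the 8 fits without 1 library, namely without MaxKO 1, 2 or 4 or Ctrl 1 or 2 (adjusted p of 0.0557 to 0.120), and under upper-quartile scaling (0.30, adjusted p = 0.0634).

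Bid encodes a BH3-only protein that is cleaved by caspase 8 and so links death receptors to mitochondria. It was measured at 20.1, 19.2, 16.9 and 18.1 CPM in MaxKO 1 to 4 and at 11.6, 14.3, 17.3 and 13.0 CPM in Ctrl 1 to 4. Ctrl 3 lay above MaxKO 3 and below the other MaxKO libraries, and the remaining controls were lower than all of them. The log2 fold change was 0.41 (SE 0.13, adjusted p = 0.0333, edgeR). The call held in only 1 of the 8 fits without 1 library, the one without Ctrl 3 (adjusted p up to 0.107 in the other 7), and ended under upper-quartile scaling (0.37, adjusted p = 0.0566). In GENCODE M21, 17.7% of the exon bases of Bid are shared with exons of Bcl2l13 on the opposite strand. The strand setting of the counting is not given, so reads there may have been left uncounted or assigned to the other gene. Bcl2l13 itself was at 81.6 ± 5.37 CPM in MaxKO and 81.1 ± 3.96 CPM in Ctrl (SD, n = 4 each; 0.01, SE 0.07, adjusted p = 0.948).

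Bmf and Bad, the other BH3-only members, did not pass the threshold. Bmf encodes a protein that is tethered to myosin motors through a dynein light chain, and was at 30.5 to 33.4 CPM in MaxKO and 27.4 to 35.5 CPM in Ctrl libraries (-0.04, SE 0.09, adjusted p = 0.799). Bad encodes a protein that 14-3-3 proteins sequester when it is phosphorylated, and was at 24.2 to 27.8 CPM in MaxKO and 24.7 to 30.1 CPM in Ctrl libraries (-0.07, SE 0.09, adjusted p = 0.606). The MaxKO range of Bmf lay within its Ctrl range, and that of Bad reached just below it. For Bad, 20.5% of exon bases are shared with Gpr137 on the opposite strand, whose own log2 fold change was -0.15 (SE 0.09, adjusted p = 0.273).

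All 3 pro-survival genes had MaxKO values below every Ctrl value, a downward separation seen in 13.1% of tested genes, but only Bcl2 passed the test. Bcl2, the founding member of the family, was measured at 18.1, 20.4, 18.5 and 18.1 CPM in MaxKO 1 to 4 and at 21.4, 25.3, 20.9 and 26.3 CPM in Ctrl 1 to 4. The means were 18.8 ± 1.09 CPM in MaxKO and 23.5 ± 2.73 CPM in Ctrl (SD, n = 4 each), a log2 fold change of -0.33 (SE 0.10, adjusted p = 0.0367, edgeR). The gap between the groups was small, with MaxKO 2 next to Ctrl 3. The call of Bcl2 held without Ctrl 1 or Ctrl 3 and ended in the other 6 fits without 1 library (adjusted p of 0.0521 to 0.0945). It also ended without the count filter (adjusted p = 0.0530).

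Bcl2l1 encodes BCL-XL. It was measured at 99.5, 98.9, 101 and 116 CPM in MaxKO 1 to 4 and at 121, 120, 117 and 120 CPM in Ctrl 1 to 4. MaxKO 4 stood apart from the other MaxKO libraries and lay close to the controls, which differed little from each other. The log2 fold change was -0.20 (SE 0.07, adjusted p = 0.0641), and without MaxKO 4 it was -0.26 and passed the threshold (adjusted p = 0.0175, edgeR). Mcl1 encodes a short-lived pro-survival protein. It was measured at 130, 132, 126 and 128 CPM in MaxKO 1 to 4 and at 165, 161, 138 and 135 CPM in Ctrl 1 to 4. Ctrl 3 and 4 lay just above the MaxKO libraries, and Ctrl 1 and 2 well above them. The log2 fold change was -0.22 (SE 0.08, adjusted p = 0.0745), and it passed the threshold without Ctrl 3 (-0.25, adjusted p = 0.0309) or without Ctrl 4 (-0.26, adjusted p = 0.0270).

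The effectors did not pass the threshold either. Bax was measured at 119, 101, 115 and 116 CPM in MaxKO 1 to 4 and at 115, 120, 133 and 108 CPM in Ctrl 1 to 4, with wide overlap (-0.08, SE 0.08, adjusted p = 0.559). Bak1 was measured at 10.5, 10.2, 10.8 and 11.5 CPM in MaxKO 1 to 4 and at 15.2, 16.8, 12.4 and 11.6 CPM in Ctrl 1 to 4. Its groups did not overlap, but Ctrl 4 lay only just above MaxKO 4, and the log2 fold change of -0.38 (SE 0.13) had an adjusted p = 0.0522. It passed the threshold without Ctrl 3 (-0.43, adjusted p = 0.0268) and without Ctrl 4 (-0.46, adjusted p = 0.0175, edgeR). For Bak1, 25.5% of exon bases are shared with Ggnbp1 on the opposite strand, whose log2 fold change was -0.08 (SE 0.16, adjusted p = 0.766). For Bax, 12.2% are shared with the predicted gene Gm45808 on the same strand.

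**Figure D2:**
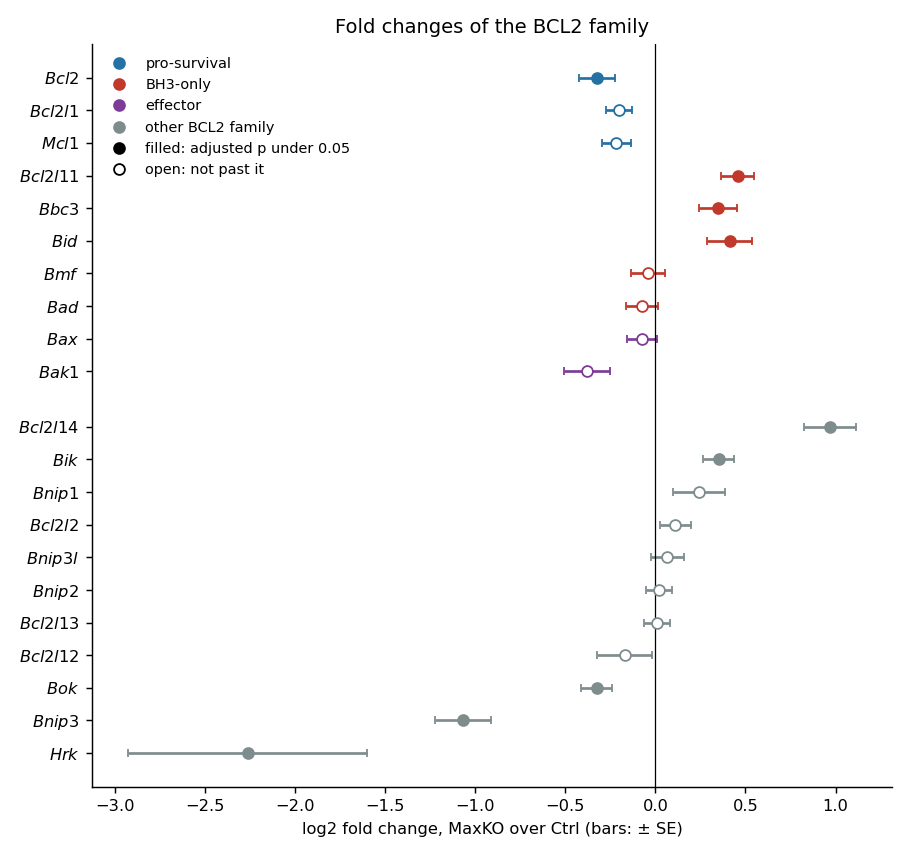
Log2 fold change of MaxKO over Ctrl (horizontal axis, ± SE) for the 10 members, coloured by class, and for 11 tested relatives in grey; filled circles passed the threshold of 0.05 and open circles did not. The 3 filled BH3-only genes lie between 0.35 and 0.46, the pro-survival genes between -0.33 and -0.20, and the relatives range from -2.26 (Hrk) to 0.97 (Bcl2l14).

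The balance between the classes was described by the mean log2 CPM of each class in each library, with no test because the members were listed with earlier results known. Only listed members entered it. Left out were the BH3-only genes Bik (0.35) and Hrk (-2.26) and the pro-survival gene Bcl2l2 (0.11, not called), described below. The BH3-only mean minus the pro-survival mean was -0.90, -1.04, -1.03 and -1.03 in MaxKO 1 to 4 and -1.57, -1.51, -1.32 and -1.47 in Ctrl 1 to 4. For the listed members, the difference was thus less negative in every MaxKO library than in any Ctrl library, with Ctrl 3 the control closest to MaxKO. These means were not scaled by length, so they do not rank the classes against each other, and only the shift between the groups is read. The difference averaged -1.0 ± 0.07 in MaxKO and -1.47 ± 0.11 in Ctrl (SD, n = 4 each), a shift of 0.47 on the log2 scale. Both class means contributed to it, although within the BH3-only class Bmf (-0.04) and Bad (-0.07) did not rise. The pro-survival mean was 5.98 ± 0.04 in MaxKO and 6.23 ± 0.07 in Ctrl, and the BH3-only mean was 4.98 ± 0.05 in MaxKO and 4.76 ± 0.06 in Ctrl (SD, n = 4 each). The effector mean was 5.13 ± 0.08 in MaxKO and 5.35 ± 0.14 in Ctrl, with Ctrl 4 at the level of the MaxKO libraries. The shift between the BH3-only and pro-survival means was 0.43 to 0.52 when any 1 library was left out. It was 0.54 against Ctrl 1 and 2 alone and 0.39 against Ctrl 3 and 4 alone. The shift describes the listed members only and was not computed with Bik, Hrk and Bcl2l2 included. Of these, Hrk and Bcl2l2 changed against its direction, and the fall of Hrk was far larger than the shift.

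**Figure D3:**
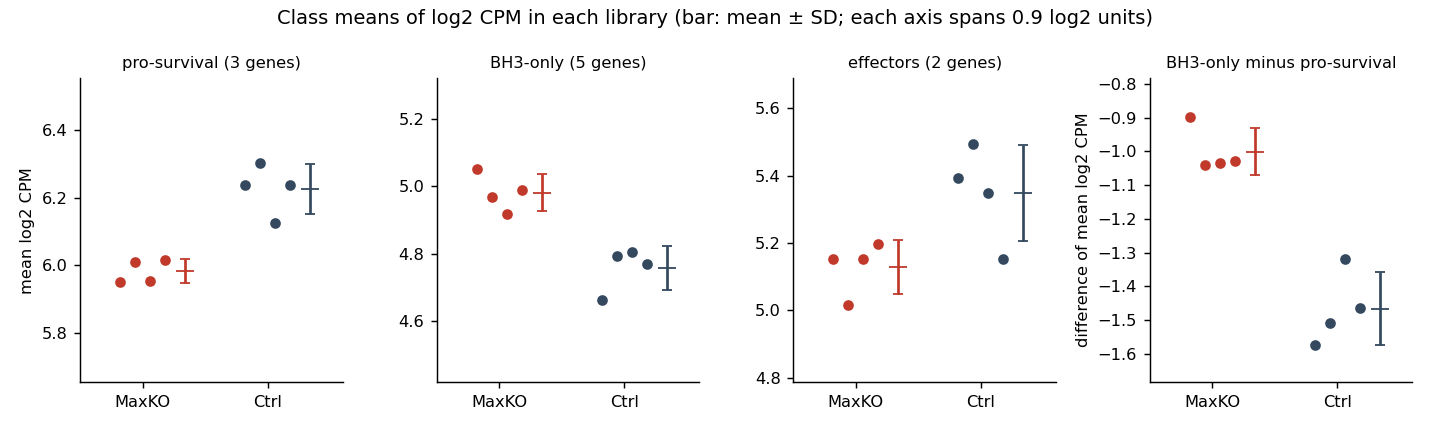
Mean log2 CPM of the pro-survival, BH3-only and effector genes and the BH3-only minus pro-survival difference (vertical axes, log2 units, each spanning the same width) in the MaxKO (red) and Ctrl (blue) libraries; points are single libraries and bars the mean ± SD. The difference runs from -1.04 to -0.90 in MaxKO and from -1.57 to -1.32 in Ctrl, while the effector means of the groups meet at 5.15.

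Levels can be set against each other only per length, and were divided by the merged exon length in GENCODE M21, which need not be the annotation used for counting. On this scale Bax was the most abundant member, at 71.5 ± 5.07 CPM per kb in MaxKO and 75.5 ± 6.71 CPM per kb in Ctrl (SD, n = 4 each). Mcl1 followed at 37.7 ± 0.719 CPM per kb in MaxKO and 43.8 ± 4.61 CPM per kb in Ctrl, and Bcl2l1 at 22.7 ± 1.81 CPM per kb in MaxKO and 26.0 ± 0.323 CPM per kb in Ctrl. The ranges of these 3 genes did not meet in either group. Bbc3 was the most abundant BH3-only transcript, at 15.8 CPM per kb in MaxKO and 12.4 CPM per kb in Ctrl, and Bcl2 was the least abundant member, at 2.05 CPM per kb in MaxKO and 2.56 CPM per kb in Ctrl. In the Ctrl group, neighbours in the order overlapped from Bbc3 down to Bid, with means of 12.4 (Bbc3), 10.9 (Bad), 6.22 (Bmf), 5.81 (Bak1), 5.38 (Bcl2l11) and 3.95 (Bid) CPM per kb, except that Bad and Bmf were apart. In MaxKO libraries Bcl2l11 stood at 7.38 CPM per kb, above Bmf at 6.06, Bid at 5.23 and Bak1 at 4.47 CPM per kb, and its lowest library (6.83) was above the highest of Bmf (6.35). The MaxKO ranges of Bid and Bak1 overlapped.

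The controls were not alike, and the members differed in how far they depended on which controls were used. Against Ctrl 1 and 2 alone, 3 members rose and 4 fell, with 44.6% of all tested genes called (22.0% higher and 22.6% lower). Against Ctrl 3 and 4 alone, 1 rose and none fell, with 20.7% of all tested genes called by edgeR (9.39% higher and 11.3% lower), and at an unadjusted p under 0.05 there were 2 higher and 2 lower, against 15.6% higher and 17.3% lower over all genes. Bcl2l11 was called against either pair, at 0.57 with Ctrl 1 and 2 and 0.34 with Ctrl 3 and 4 (adjusted p = 0.0254, edgeR). Bcl2 (-0.32 and -0.34) and Bcl2l1 (-0.21 and -0.20) hardly differed in size between the pairs. Mcl1 was at -0.34 against Ctrl 1 and 2 and -0.09 against Ctrl 3 and 4, and Bak1 at -0.57 and -0.16. The log2 fold changes of Bbc3 were 0.43 and 0.26 and those of Bid 0.53 and 0.30, in the same order of controls. The share of reads outside exons also separated these pairs, and its part in the differences was not tested by the split. With that share as a term in the fit of all 8 libraries, 3 members rose and 4 fell. Calls over all genes were more frequent in that fit too, at 16.9% higher and 16.3% lower.

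**Figure D4:**
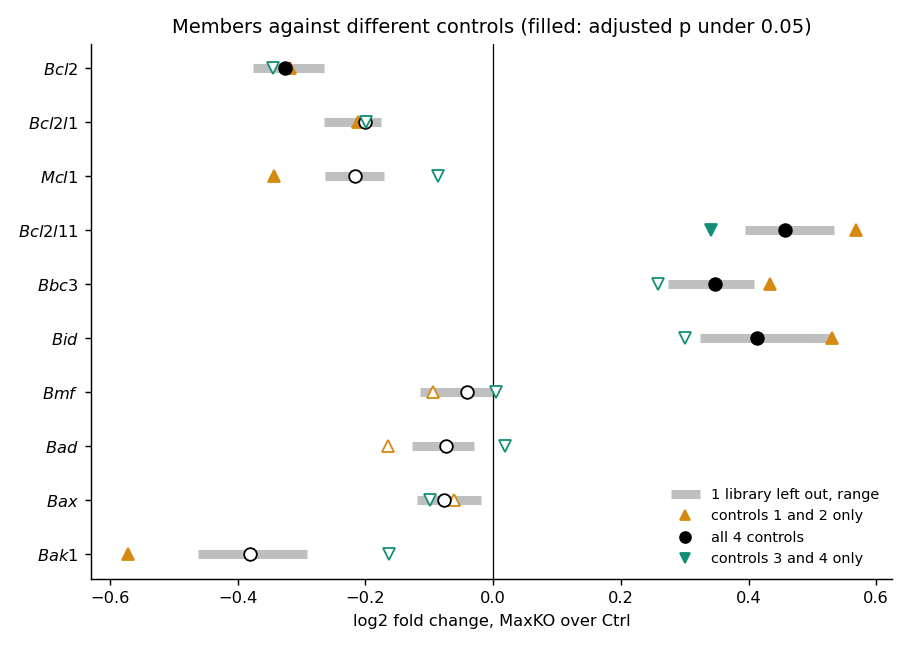
Log2 fold change of MaxKO over Ctrl (horizontal axis) of each member against all 4 controls (circles), Ctrl 1 and 2 only (upward triangles) and Ctrl 3 and 4 only (downward triangles); filled symbols passed the threshold of 0.05 and grey bars span the fits that left out 1 library. Bcl2l11 is filled in all 3 fits, and Bak1 moves furthest between the control pairs, with -0.57 against Ctrl 1 and 2 and -0.16 against Ctrl 3 and 4.

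The genes whose log2 CPM followed a member most closely over the 8 libraries were taken by Pearson correlation among 11132 tested genes, as a description that includes the difference between the groups. For Bcl2l11 they were Smap2 (r = 1.00 to 2 decimals), Casp8 (r = 0.99) and Efcab4a (r = 0.99). For Bbc3 they were Exosc5 (r = 0.96), Ifitm2 (r = 0.96) and Pnkd (r = 0.95). Casp8 was at 58.4, 57.6, 52.1 and 56.1 CPM in MaxKO 1 to 4 and at 26.7, 29.0, 32.7 and 39.2 CPM in Ctrl 1 to 4. As with Bcl2l11, MaxKO 3 was the lowest MaxKO library and Ctrl 4 the highest control.

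Among 18 further genes of the family or named with it, 11 were tested, of which 2 rose and 3 fell. The shares over all tested genes were 10.9% higher and 12.2% lower. The median log2 fold change of the 11 was 0.02, against -0.0036 over all tested genes and -0.07 over the 10 members. Bcl2l14, which encodes BCL-G, was at 6.37, 6.64, 6.44 and 6.57 CPM in MaxKO 1 to 4 and at 3.42, 3.01, 2.93 and 3.87 CPM in Ctrl 1 to 4 (0.97, SE 0.15, adjusted p = 0.000704). The groups were far apart and the call held in all 19 alternatives. Bik, another BH3-only gene, rose to 23.1 ± 1.69 CPM in MaxKO, against 18.1 ± 0.522 CPM in Ctrl (0.35, adjusted p = 0.0116), a call that ended without MaxKO 1 (adjusted p = 0.0528). Bok, a relative of Bax and Bak1, fell to 35.5 ± 1.15 CPM in MaxKO, against 44.6 ± 4.73 CPM in Ctrl (-0.33, adjusted p = 0.0183, but 0.0581 without MaxKO 3; SD, n = 4 each, edgeR). Bnip3, a mitophagy receptor gene induced by hypoxia, was at 43.7, 47.5, 37.7 and 32.4 CPM in MaxKO 1 to 4 and at 71.2, 76.6, 78.6 and 112 CPM in Ctrl 1 to 4. Its fall of 1.07 on the log2 scale had an adjusted p = 0.000641 and held in all 19 alternatives. Hrk, a BH3-only gene of neurons, was at 0.948 to 1.30 CPM in MaxKO and at 1.76, 3.19, 14.5 and 2.13 CPM in Ctrl 1 to 4 (-2.26, SE 0.66, adjusted p = 0.0313). Ctrl 3 set the size of this fall, which was -1.10 without it (still past the threshold), and the call ended when any 1 MaxKO library was left out (adjusted p up to 0.0768). The other 6 tested genes ran from -0.17 (Bcl2l12) to 0.24 (Bnip1), with the pro-survival gene Bcl2l2 at 0.11, and did not pass the threshold.

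Downstream of the mitochondria, 2 of 14 tested apoptosome and caspase genes rose and none fell by edgeR, DESeq2 or limma-voom, with 4 higher and 1 lower at an unadjusted p under 0.05 by each. Over all tested genes, edgeR called 10.9% higher and 12.2% lower, and 17.4% and 18.1% at an unadjusted p under 0.05. Casp8, the initiator caspase of death receptors that cleaves BID, rose by 0.81 on the log2 scale (SE 0.11, adjusted p = 0.000427). Its call held in all 19 alternatives. The initiator Casp9 was at 28.9 ± 0.525 CPM in MaxKO and 25.0 ± 1.51 CPM in Ctrl (0.21, adjusted p = 0.0742; SD, n = 4 each, edgeR). Apaf1 and Cycs, which encode the other parts of the apoptosome, did not pass the threshold (0.10 and -0.20). These 2 were chosen after their values were seen, and Cycs has processed copies in the genome that make its count less certain.

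**Figure D5:**
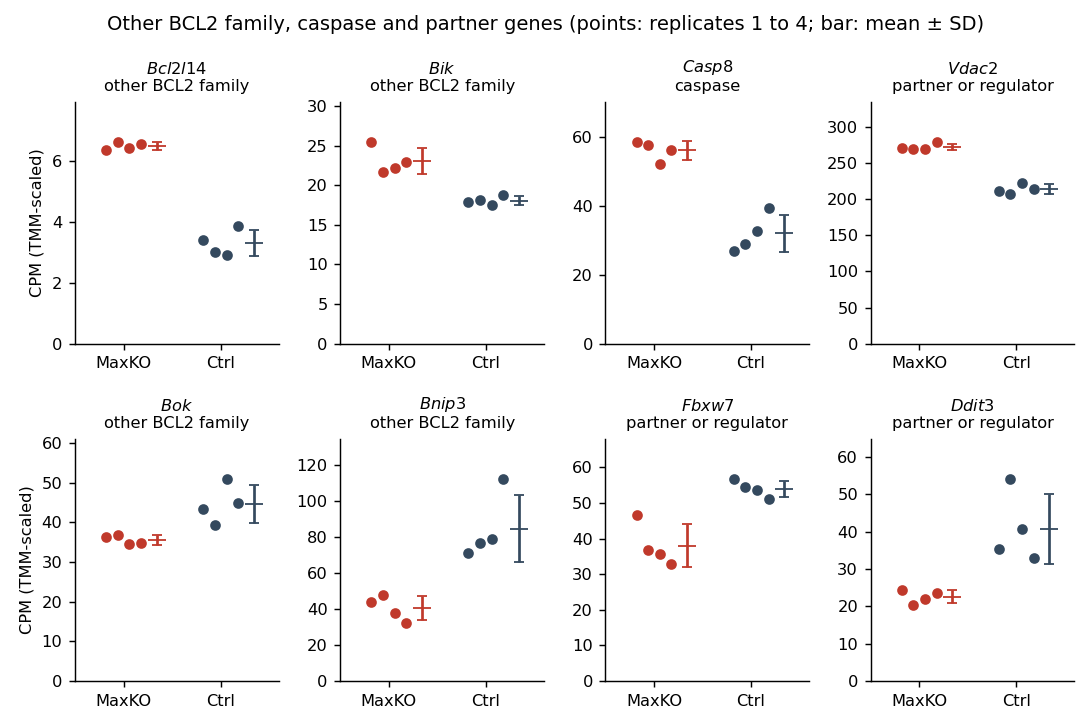
Level in CPM (vertical axes from 0) of 8 genes outside the 10 members in the MaxKO (red) and Ctrl (blue) libraries; points are single libraries in replicate order and bars the mean ± SD. Bcl2l14, Bik, Casp8 and Vdac2 lie higher in every MaxKO library than in any Ctrl library, and Bok, Bnip3, Fbxw7 and Ddit3 lower.

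Among 30 tested partners and regulators of the members, 2 rose and 3 fell, and 25 did not pass the threshold by edgeR. The edgeR shares over all tested genes were 10.9% higher and 12.2% lower. DESeq2 called 8 of the 30 higher and 4 lower, with 12.5% of all tested genes higher and 13.2% lower. Vdac2, whose outer-membrane channel holds BAK inactive, rose to 273 ± 4.42 CPM in MaxKO, against 214 ± 6.53 CPM in Ctrl (SD, n = 4 each; 0.35, SE 0.06, adjusted p = 0.00232, edgeR). Fbxw7, a subunit of a ubiquitin ligase that targets MCL1 and MYC for degradation, fell to 37.9 ± 6.05 CPM in MaxKO, against 54.0 ± 2.31 CPM in Ctrl (SD, n = 4 each; -0.51, SE 0.11, adjusted p = 0.00486, edgeR). Both held in all 19 alternatives. Of 6 tested transcription factors known to act on BH3-only genes, namely Ddit3, E2f1, Foxo1, Foxo3, Foxo4 and Trp53, 1 rose and 2 fell. The shares over all tested genes were 10.9% higher and 12.2% lower. These 6 were drawn from the partner and p53 lists, in part after values were seen, so their count is only a description. Ddit3 (CHOP) fell by 0.85 on the log2 scale (adjusted p = 0.00144) and E2f1 rose by 0.45 (adjusted p = 0.0208). The call of Ddit3 held in all 19 alternatives. That of E2f1 ended without MaxKO 1, 2 or 4 or Ctrl 2 (adjusted p up to 0.0684), and against Ctrl 3 and 4 alone its log2 fold change was 0.21. Foxo1, chosen after its values were seen to complete the count, fell by 0.35 on the log2 scale (adjusted p = 0.0291), and its call ended without MaxKO 2 or 3 or Ctrl 1 (adjusted p up to 0.0826). The other FOXO genes of the list, likewise named after their values were seen, were Foxo3 (-0.09, adjusted p = 0.740) and Foxo4 (-0.0087, adjusted p = 0.956). Neither passed the threshold, and nor did Trp53 (0.05, adjusted p = 0.718, edgeR), which was named in the same way.

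Of 10 tested IAP genes and antagonists, which act on caspases, 1 rose and 1 fell, against 10.9% higher and 12.2% lower over all tested genes. Birc3, which encodes cIAP2, rose to 7.64 ± 1.26 CPM in MaxKO, against 4.72 ± 0.868 CPM in Ctrl (0.69, adjusted p = 0.0135, but 0.0549 without MaxKO 2). Xaf1, an antagonist of XIAP, fell to 4.94 ± 0.308 CPM in MaxKO, against 7.65 ± 0.833 CPM in Ctrl (-0.63, adjusted p = 0.00554; SD, n = 4 each, edgeR). Birc5 (survivin) and Naip2, a gene with close paralogs whose count is uncertain, did not pass the threshold (0.20 and -0.58). None of 13 tested death receptor pathway genes was called by edgeR, DESeq2 or limma-voom, and each tool put 1 of them past an unadjusted p of 0.05, which was Tnfrsf25 by edgeR (-0.58, adjusted p = 0.0693). By edgeR, 17.4% of all tested genes were higher and 18.1% lower at that unadjusted threshold. Against Ctrl 1 and 2 alone, none rose and 2 fell by edgeR (2 higher and 5 lower at an unadjusted p under 0.05), and against Ctrl 3 and 4 alone, 1 rose and 2 fell. The shares of all tested genes called in these fits were 44.6% with Ctrl 1 and 2 and 20.7% with Ctrl 3 and 4. Of 18 p53 core and p53-induced genes, 2 rose and 2 fell against all 4 controls, beside the same 10.9% higher and 12.2% lower over all tested genes. Sesn2 (0.57, adjusted p = 0.0124) and Ei24 (0.19, adjusted p = 0.0363) rose, and Phlda3 (-0.84, adjusted p = 0.00260) and Sesn1 (-0.33, adjusted p = 0.0392) fell, by edgeR. The calls of Sesn2 and Phlda3 held in every fit without 1 library, and those of Ei24 and Sesn1 in 2 of 8 each.

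In these bulk libraries, fewer cells of a kind and less RNA per cell cannot be told apart, and cells lost by apoptosis before harvest would leave no transcript to count. Levels of the proteins, and their cleavage or phosphorylation, were not measured.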

How the data were processed

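Libraries were prepared from TRIZOL-extracted total RNA with an Ultra RNA kit (New England BioLabs), per the labels' protocols. Read counts per gene symbol were deposited by the authors, and the submitters' processing notes name HTSeq 0.6.1, TopHat2 2.0.12, bcl2fastq 1.8.4 and the build mm9. Which annotation and strand setting served for counting is not given in the sources used here. The closing rows, which name no gene, were left out of library sizes and tests. Of all reads, they held 16.8% to 20.8% assigned to no feature, 9.21% to 11.5% not unique and 0.89% to 1.0% ambiguous.

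Of 23284 genes, 19124 had a count and 13358 passed filterByExpr. TMM scaling and the quasi-likelihood F test (robust fit, group as the only term) were run in edgeR 4.0.16 under R 4.3.3. Alternatives included DESeq2 1.42.0 and limma-voom (limma 3.58.1), 19 in all. SEs were derived from the fold change and F. Class means and correlations used log2 CPM with a prior count of 2. CPM of genes with few reads is limited by depth, 1 read being 0.0505 to 0.0729 CPM. The procedure was also run on simulated counts, with a fixed dispersion, no split among the controls and changes larger than that of any member. It therefore does not show how well changes of the members' size are found.

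The members and gene lists were chosen with earlier results of these data known. Named genes were the members, all further family genes, up to 4 genes with the smallest p per other list, and Max. For the 2 called members with the smallest p, the 3 best-correlated genes were named among those averaging 1 or more log2 CPM, predicted and clone-named genes left out. The promoter motifs were also chosen with these values known. The symbol Pidd1 was matched by its older name. The values of some genes in the lists are not reported here.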

Additional observations from a re-analysis of the deposited data

Results flagged for a closer look

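A library was picked out where its gap to the nearest of the 4 libraries of its group made up most of the group's range (Dixon's 95% critical value). This applied to 6 of 86 gene and group combinations examined, where chance gives about 1 in 20. Among the members only Bcl2l1 was affected, at 116 CPM in MaxKO 4 against 98.9 to 101 CPM in the other MaxKO libraries. Vdac2 was at 280 CPM (279.5 to 1 decimal) in MaxKO 4, against 270.3 to 271 CPM in the others. Phlda3 was at 4.18 CPM in MaxKO 2, against 6.32 to 6.44 CPM in the others, and Foxo1 at 29.5 CPM in MaxKO 3, against 37.1 to 37.9 CPM. In the controls, Ctrl 3 held 14.5 CPM of Hrk, against 1.76 to 3.19 CPM in the other controls, and 204 CPM of Birc5, against 162 to 168 CPM.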

How the results depend on the processing

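The 43 genes followed through the alternative fits included all members but not Dcn, Pdgfra or the genes named by correlation (Casp8 aside). None of the 43 that passed the threshold changed direction in the 19 alternatives. Bcl2l11 kept its call in all of them, Bbc3 in 11, Bcl2 in 10 and Bid in 9, while Bak1 gained a call in 7 and Bcl2l1 and Mcl1 in 5 each. Bmf, Bad and Bax were not called in any. Members called higher numbered 3, but 1 with upper-quartile scaling, with the replicate block and with Ctrl 3 and 4 only, and 1 to 3 with 1 library left out. Members called lower numbered 1, but 4 with upper-quartile scaling, with Ctrl 1 and 2 only and with each library's non-exonic read share as a covariate, 3 with DESeq2, 2 with the filter of 1 CPM in 4 libraries, and 0 without a filter, with the replicate block and with Ctrl 3 and 4 only (edgeR; 4, 4 and 2 at an unadjusted p under 0.05, while limma-voom called 1). The cause was not tested. With 1 library left out this number was 0 to 3. Over all genes, 6068 were called with Ctrl 1 and 2 only (2987 higher and 3081 lower), and the covariate gave 2259 higher and 2180 lower. Without a filter 1369 were higher and 1569 lower, and with the filter of 1 CPM in 4 libraries 1367 and 1647. With 1 library left out, 963 to 1846 were higher and 1139 to 1929 lower. Libraries with the same replicate number did not deviate together (correlations of -0.20 to 0.0020), so the block of replicate numbers does not reflect a known pairing. The block gave 2532 called genes, 1208 higher and 1324 lower. Bbc3 (adjusted p = 0.0794), Bid (0.0655) and Bcl2 (0.0647) were not called under this block. Depth limits the genes at a few CPM, such as Hrk.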

Other observations

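Several BH3-only and pro-survival relatives had almost no counts. Pmaip1, which encodes the BH3-only protein NOXA, had 2 reads in MaxKO 3 and 0 in the other MaxKO libraries, and 2, 1, 0 and 1 reads in Ctrl 1 to 4. Where no read was counted, levels of up to 0.151 to 0.219 CPM, depending on the library, remain possible (3 counts, counting error only). Bcl2l10 had 0 reads in every MaxKO library and 2, 1, 0 and 0 reads in Ctrl 1 to 4. The pro-survival genes Bcl2a1a, Bcl2a1b, Bcl2a1c and Bcl2a1d were listed at 0 in all 8 libraries, which is uncertain because reads from near-identical copies align to several places. None of these values is read as absence, as the gene models behind the counts are unknown.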
